A study of Mus musculus with 9 samples.

Results

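A cell fraction of Hepa1-6 tumours enriched in infiltrating inflammatory cells (the TIC fraction) was compared with blood taken from the same 3 mice before tumour cells were given. The comparison took the 3 arrays of the TIC fraction at day 10 and the 3 arrays of blood at day 0, 6 of the 9 arrays of the series, matched by the animal numbers 832, 833 and 834. The other 3 arrays, of blood at day 10, entered only the shared estimate of the spread.

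All 3 animals were female BALB/c athymic mice. Day 0 blood came from these mice before any treatment, and the TIC fraction from subcutaneous tumours of Hepa1-6, a mouse hepatoma cell line, 10 days after inoculation. Per the labels, blood and tumours went into RNAlater, the tumours were ground before the fraction was taken, and RNA was isolated with different kits from tumours (Stratagene) and from blood (Ambion). Tissue, day and kit therefore cannot be told apart in this comparison. The labels name no marker or gate for the enrichment, and whole tumours or cultured Hepa1-6 cells were not analysed here. One label field of the TIC samples reads blood while their tissue field names tumour-infiltrating cells. Cy5 marked the sample on every array, while Cy3 marked a reference shared by all arrays, RNA from blood of a female C57Bl/6 mouse left untreated, a strain with a thymus. The dyes were not swapped.

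The arrays lay on 3 slides. Slide 2 held the TIC fractions of mice 833 and 834 and the day 0 bloods of mice 832 and 833, and is the only slide with both groups. The TIC fraction of mouse 832 lay on slide 1 and the day 0 blood of mouse 834 on slide 3. Mouse 833 is the only animal with both of its arrays on 1 slide.

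Athymic mice form no working thymus and lack most T cells, while B cells, natural killer cells and myeloid cells develop. Whole blood RNA carries many transcripts of young red cells and of platelets beside those of white cells. A growing tumour draws in monocytes, which become macrophages, and neutrophils, guided by chemokines, small secreted proteins that direct white cells. A fraction made from a ground tumour can also hold tumour cells.

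Values are log2 of Cy5 over Cy3 after loess normalization within each array. Signals, single or summed, are spot intensities minus local background and are not scaled between arrays. Both are given in the order of mice 832, 833 and 834. A difference is the TIC fraction minus day 0 blood on the log2 scale, with the SE of a limma fit that holds the mouse as a block. A gene was called where limma's Benjamini-Hochberg adjusted p over all genes was under 0.05. The labels name the animals and not how many tumour pieces or preparations each sample came from, so the p-values measure the spread between these samples. In such bulk samples fewer cells of a type and less RNA per cell cannot be told apart.

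Of 14253 genes tested, 9102 were called (63.9%), 4332 higher in the TIC fraction (30.4%) and 4770 lower (33.5%). With slide as a further fixed block 4432 were called, 1472 higher and 2960 lower. Sample RNA lit more spots on the TIC arrays, with 55.06%, 52.73% and 48.18% of spots well above background in Cy5 against 36.87%, 32.43% and 24.35% on the day 0 arrays. The Cy3 reference lit 40.21% to 50.4% of spots on the 6 arrays. Cy5 was above background on all 3 TIC arrays and on no day 0 array for 3167 genes, and the other way round for 301. Among the 6891 genes above background on all 6 arrays, 1582 were called higher (23%) and 3131 lower (45.4%), with a median difference of -0.37 against 0.013 over all genes tested.

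The arrays of mouse 833 stood apart in both tissues. Over all genes the ratios of its TIC array correlated with those of mice 832 and 834 at 0.885 and 0.896, against 0.989 between those 2, which lie on different slides. Its day 0 blood correlated with the TIC arrays at 0.431 to 0.507, against 0.183 to 0.287 for the other bloods. These are correlations across genes, which are not replicates. Counts without its TIC array are given for the lists they change most.

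With Cy5 and Cy3 so unequal in brightness on the TIC arrays, the size of a difference depended on the scaling. The median difference of all genes was 0.013 with loess, 0.11 with Cy5 alone, 0.36 with either the scanner's processed signals or the deposited log ratios, and 1.16 with arrays centred on the median alone. Genes higher in the TIC fraction made up 47.6% of the calls with loess, 53.8% with Cy5 alone, 56.6% with the processed signals, 56.7% with the deposited log ratios and 92.1% with median centring. A second count was therefore kept, of genes called in 1 direction under all 5 scalings. It held 3800 genes (26.7%), 3009 higher (21.1%) and 791 lower (5.55%). A median-centred value is best read against the 1.16 of all genes. Without regard to calls, the 3 TIC ratios lay above all 3 blood ratios for 32.7% of genes and below them for 34.9%, and on the shared slide the 2 lay above the 2 for 37.3% and below for 37.7%.

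**Figure D1:**
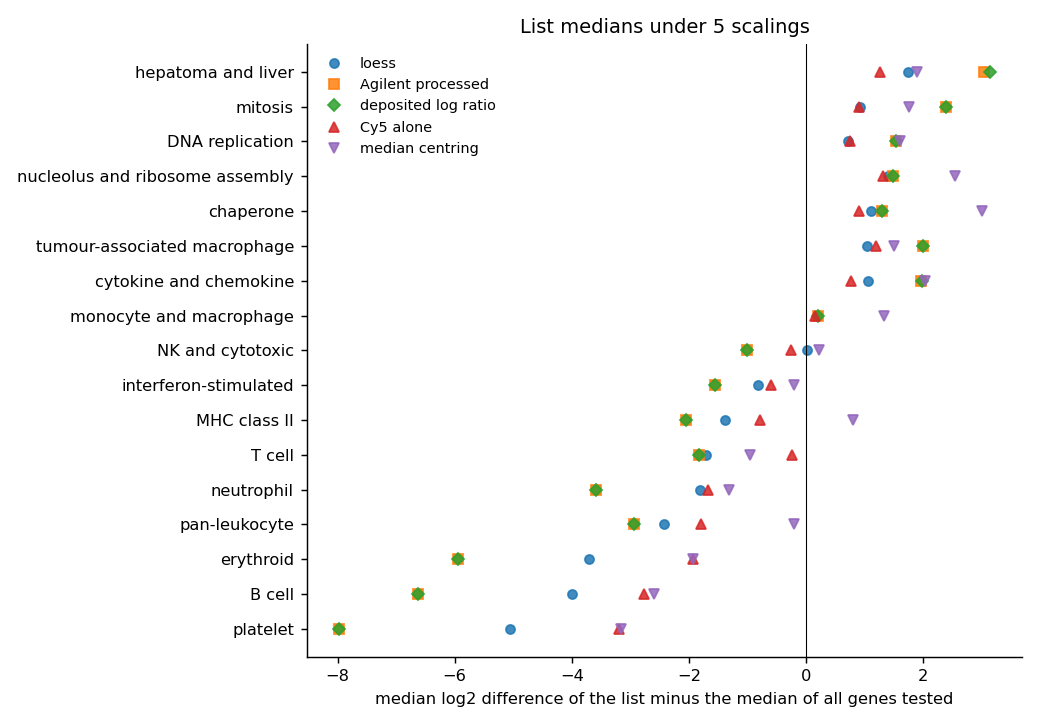
Median difference of each of 17 gene lists minus the median of all genes tested (x axis, log2), with 1 symbol for each of 5 scalings and 1 row for each list. The platelet, B cell and erythroid lists lie below 0 and the hepatoma, mitosis, nucleolus and chaperone lists above 0 under each scaling. The pan-leukocyte list moves from -2.43 with loess to -0.2 with median centring.

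Transcripts typical of hepatoma and liver cells were bright in the fraction. Of 25 hepatoma and liver genes tested, 20 were called higher and 3 lower, and 15 were above background on the TIC arrays alone, a group that had to differ to pass the filter. Of the 5 above background on all 6 arrays, 2 rose and 2 fell. The list's summed Cy5 signal over 29 genes on the array was 979, 705 and 201 in day 0 blood and 477656, 163757 and 240251 in the TIC fraction. Leukocyte transcripts were present as well. All 15 pan-leukocyte genes were above background on every array, with summed signals of 13338, 10661 and 5415 in day 0 blood and 138452, 10586 and 40106 in the TIC fraction. The fraction thus held transcripts typical of hepatoma cells and of white cells, and the share of each cell type was not measured.

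Afp encodes alpha-fetoprotein, a fetal liver protein made by many hepatomas. Its ratios were 0.30, 0.12 and 0.072 in day 0 blood and 5.15, 6.24 and 5.07 in the TIC fraction (probe at chr5:91583955-91584014 of mouse build mm8). No TIC array overlapped a blood array, and Afp rose by 5.32 ± 0.27 (SE; limma adjusted p = 4.4e-05), between 5.32 and 7.69 over the 5 scalings. Alb encodes serum albumin. Its Cy5 signals were 2.05, 2.18 and 4.47 in day 0 blood, none of them above background, and 41948, 19473 and 21863 in the TIC fraction (probe at chr5:91547772-91547831). With only a bound in blood, Alb was at least 75-fold higher in the TIC fraction. Its loess ratio rose by 3.53 (limma adjusted p = 4.8e-05). Such bounds come from the single channels after loess and quantile scaling of average intensities and are open to dye bias. No test was run on a bound, and any p beside one, here and below, is that of the loess ratio. Genes seen on the TIC arrays alone had to differ to pass the filter, so their p adds no support. By bounds of the same kind Rbp4, a plasma retinol carrier, was at least 253-fold higher and the liver transcription factor Foxa2 at least 7.09-fold. Igfbp1, a binding protein for insulin-like growth factors, was at least 97.7-fold higher. The limma adjusted p of the loess ratios of Rbp4, Igfbp1 and Foxa2 were 0.00018, 3.4e-05 and 4.2e-05. Rhox5, a homeobox gene of the X chromosome outside these lists, followed Rbp4 in brightness among genes seen on the TIC arrays alone. It was at least 194-fold higher (limma adjusted p of its loess ratio = 4.2e-05).

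On the TIC arrays the Cy3 signal of some of these genes was high too, though the Cy3 channel held the same blood reference everywhere. Rbp4 gave Cy3 signals of 12.8, 14.9 and 9.58 on the day 0 arrays and 1300, 840 and 2176 on the TIC arrays, beside Cy5 signals of 199132, 30430 and 96042 on the latter. The lowest TIC Cy3 signal exceeded 3 times the highest day 0 Cy3 signal for 91 genes. Their median Cy5 signal on TIC arrays was 4785, against 183.3 over all genes. Rbp4 rose by 3.16 as a loess ratio and by 7.94 in Cy5 alone. These scalings also differ in their normalization. Whether the raised Cy3 signal accounts for the gap was not tested.

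Not all liver genes rose. Ahsg, which encodes the plasma protein fetuin-A, fell by 2.91 ± 0.21 (SE; limma adjusted p = 0.0001) and was called lower under all 5 scalings. Serpinc1 (antithrombin, -2.0) and H19 (an imprinted non-coding RNA, -1.08) were called lower with loess, at -0.065 and -0.16 with median centring. Of the 20 rises 12 repeated on the shared slide, where 7.19% of all genes were called higher, and 18 held under all 5 scalings. Without the TIC array of mouse 833 the list gave 21 rises and 3 falls.

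**Figure D2:**
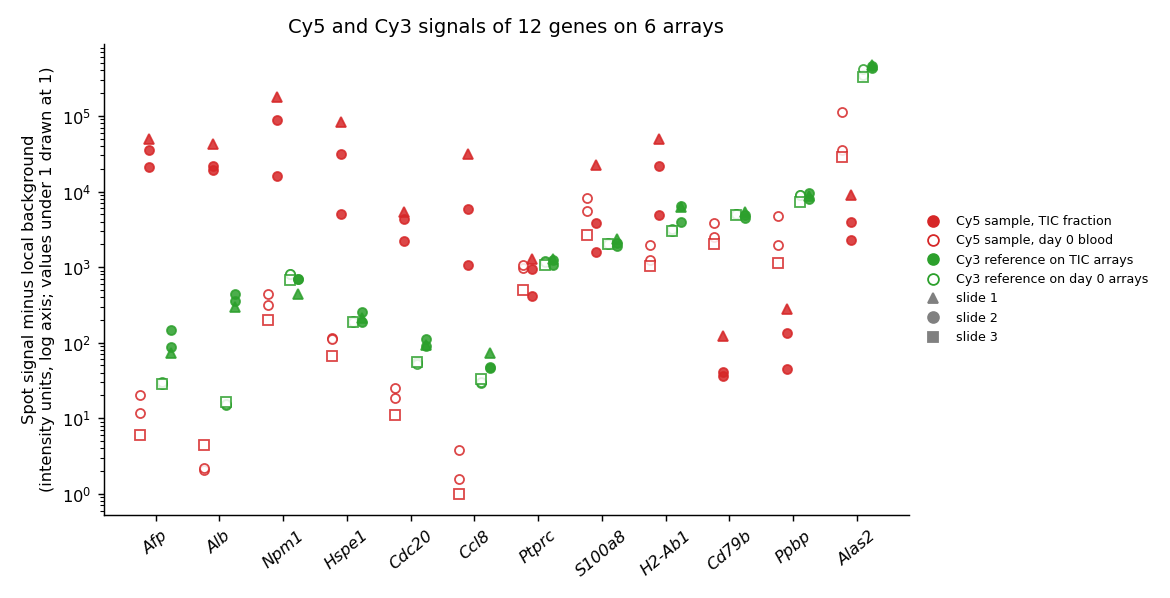
Spot signal minus local background (y axis, log scale) of 12 genes on 6 arrays, red for the Cy5 sample, green for the Cy3 reference, filled for TIC arrays and open for day 0 arrays, with the shape giving the slide. Afp, Alb and Ccl8 have Cy5 signals near background in day 0 blood and bright ones in the TIC fraction. The Cy5 signals of Alas2, Ppbp and Cd79b fall, and those of Ptprc overlap between the groups. Signals are not scaled between arrays.

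Red cell transcripts were among the largest falls. Of 31 erythroid genes tested, 28 fell and 1 rose, with a median difference of -3.70. Of the 21 above background on all 6 arrays, 19 fell and 1 rose (median -4.34). The list's summed Cy5 signal was 590171, 281688 and 139805 in day 0 blood and 133662, 31951 and 65871 in the TIC fraction. On the shared slide, where 17.3% of all genes were called lower, 25 of the falls repeated, and 20 held under all 5 scalings. Without the TIC array of mouse 833 there were 29 falls and 2 rises.

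Alas2 encodes the first enzyme of heme synthesis in red cell precursors. Its ratios were 0.85, -0.013 and 1.74 in day 0 blood and -10.69, -8.41 and -9.97 in the TIC fraction (probe at chrX:145911166-145911225, mm8). Its Cy5 signals were 111314, 35020 and 28351 in blood and 9086, 2304 and 3983 in the TIC fraction, beside Cy3 signals between 332118 and 466939. The groups did not overlap on either scale. Its difference was -10.55 ± 0.63 (SE; limma adjusted p = 5.8e-05) with loess and -4.02 with median centring, so that the direction held and the size did not. Hbb-y, an embryonic beta-type globin whose probe may also bind the closely related adult genes, had the lowest difference of this list at -10.83 ± 0.27 (SE; limma adjusted p = 1.6e-05), between -11.42 and -5.87 over the scalings. Slc25a37, the mitochondrial iron importer mitoferrin-1, fell by 10.53 (another probe -5.02). Epb41, the membrane skeleton protein 4.1R, fell by 9.24 (other probes between -6.82 and -3.43), and Slc4a1, the anion exchanger band 3, by 7.24. Nfe2 and Tal1, transcription factors of red cells and platelets, were both called lower. Nfe2 fell by 4.36, and Tal1, above background on no TIC array, was at least 8.92-fold lower. The exception was Alad, a heme pathway enzyme found in most tissues, which rose by 2.08 ± 0.14 (SE; limma adjusted p = 7.5e-05), repeated on the slide and held under all 5 scalings. Urod, Ppox and Cpox, later enzymes of the same pathway that all cells use, stood at -0.60, -1.05 and -0.40 with loess (Cpox not called) and at 3.27, 2.39 and 2.27 with median centring.

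Red cell genes are known to be driven by GATA1, which binds AGATAA or TGATAA, and by KLF1, which binds CCACCC. The 250 bases before the start site, from RefSeq (GRCm38.p6), are shown for 3 members that fell and hold both kinds of match. These letters on either strand are in capitals. In the red cell genes Hemgn and Epb42, not shown, the same stretch holds 1 GATA match each and 0 CCACCC matches. Alas2 (chrX:150547167-150547416, plus strand) holds 1 GATA match and 3 overlapping CCACCC matches, Rhag (chr17:40810899-40811148, plus strand), a red cell membrane protein, holds 1 of each, and Kel (chr6:41704326-41704575, minus strand), a blood group antigen, holds 2 and 1.
Alas2: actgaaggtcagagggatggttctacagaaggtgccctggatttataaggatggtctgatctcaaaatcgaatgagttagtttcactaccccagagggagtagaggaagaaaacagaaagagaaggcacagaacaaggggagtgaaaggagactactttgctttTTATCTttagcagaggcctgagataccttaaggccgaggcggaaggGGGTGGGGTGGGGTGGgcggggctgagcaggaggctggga
Rhag: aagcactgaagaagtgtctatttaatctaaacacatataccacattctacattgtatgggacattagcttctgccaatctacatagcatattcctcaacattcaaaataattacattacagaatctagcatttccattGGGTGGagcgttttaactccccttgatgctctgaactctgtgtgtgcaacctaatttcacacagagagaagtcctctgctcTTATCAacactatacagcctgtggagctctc
Kel: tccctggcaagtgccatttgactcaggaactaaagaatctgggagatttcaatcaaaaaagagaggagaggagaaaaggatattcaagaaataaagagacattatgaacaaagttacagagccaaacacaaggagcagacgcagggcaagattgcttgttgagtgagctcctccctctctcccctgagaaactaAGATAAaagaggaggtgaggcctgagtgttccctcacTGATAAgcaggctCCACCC
A promoter was found for 20 of the 31 tested members. In windows from 250 bases before to 50 after the start, 13 of the 20 (65%) held AGATAA or TGATAA, against 20.96% of 27025 genes, and 11 (55%) held CCACCC, against 34.05%. These matches are letters in a window and were not tested for binding. Kel fell by 4.18, and Rhag, above background on no TIC array, was at least 4.23-fold lower (limma adjusted p of the loess ratios = 7.8e-05 and 7.9e-05).

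Platelet transcripts fell without exception among those tested. All 13 were called lower, with a median of -5.05, and all 13 repeated on the shared slide and held under all 5 scalings, as well as without any 1 of the 6 arrays. The 7 above background on all 6 arrays had a median of -6.20. Ppbp encodes platelet basic protein, a chemokine stored in platelet granules. Its ratios were 0.71, 0.073 and 0.64 in day 0 blood and -8.07, -7.74 and -7.80 in the TIC fraction, and its Cy5 signals 4782, 1964 and 1123 and 278, 45.4 and 135. The 3 TIC values lay far below the 3 blood values, at a difference of -8.34 ± 0.28 (SE; limma adjusted p = 2.6e-05) with loess. Over the 5 scalings the difference of Ppbp lay between -9.09 and -3.93. Gp9 and Gp1ba, subunits of the receptor for von Willebrand factor, and Itga2b and Itgb3, the chains of the fibrinogen receptor, were among them. Gp9 fell by 7.72 and Itgb3 by 6.78, with another probe of Itgb3 at -0.94. Gp1ba, Itga2b and Gp5, another surface receptor subunit, were above background on no TIC array, and were at least 20-fold, 17.3-fold and 9.82-fold lower there. Summed platelet signals varied widely within each group, with 47368, 23246 and 3996 in day 0 blood and 33167, 1798 and 11255 in the TIC fraction, and the summed signals of the groups overlapped while the ratios of Ppbp did not.

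B cell transcripts fell as uniformly. All 19 tested were called lower (median -3.98), all 19 repeated on the shared slide, and 16 held under all 5 scalings. The 12 above background on all 6 arrays had a median of -4.15. Summed B cell signals were 21470, 13798 and 9984 in blood and 2645, 1152 and 1103 in the TIC fraction, with no overlap. Cd79b encodes a signalling chain of the B cell receptor. Its ratios were 1.13, 1.17 and 2.13 in day 0 blood and -7.98, -7.08 and -7.60 in the TIC fraction, and its Cy5 signals 3858, 2500 and 2045 and 122, 36.5 and 40.4 (probe at chr11:106127556-106127615, mm8). The difference was -9.03 ± 0.44 (SE; limma adjusted p = 3.9e-05), between -10.01 and -4.82 over the scalings. Ighm (the heavy chain of IgM) fell by 8.61, Ms4a1 (CD20) by 7.47, Pou2af1 (a B cell coactivator) by 6.16 and Pax5, the B lineage transcription factor, by 1.63. The 3 members not called under every scaling were Cd37, Cd72 and Cr2 (chosen after their values were seen), and Cd72 stood at 0.43 with median centring.

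**Figure D3:**
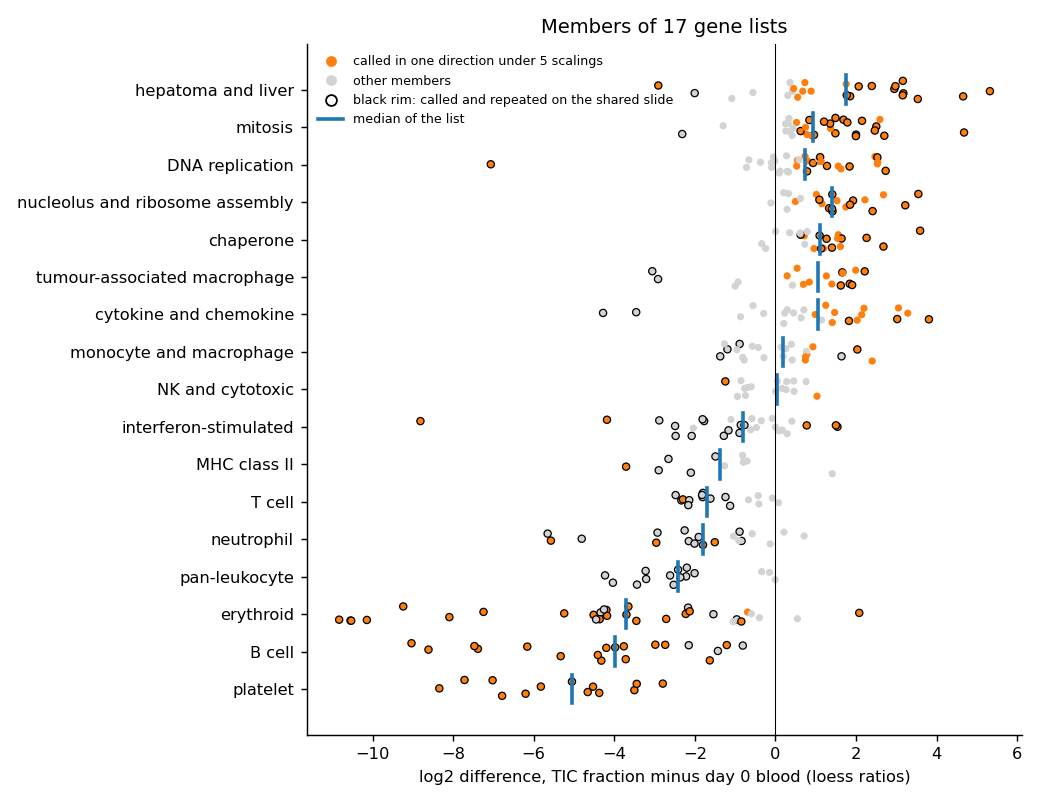
Difference between the TIC fraction and day 0 blood (x axis, log2 loess ratios) for each tested member of 17 gene lists, with the list median as a blue bar. Orange members were called in 1 direction under all 5 scalings, and a black rim marks those that repeated on the shared slide. All 13 platelet and 19 B cell genes lie below 0, and all 15 called chaperone genes above it.

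Most genes of dividing cells rose. Of 32 mitosis genes tested, 25 were called higher and 2 lower (median 0.93), 16 of the rises repeated on the shared slide and 22 held under all 5 scalings. Only 9 were above background on all 6 arrays, and of these 5 rose and 2 fell, while 14 were seen on the TIC arrays alone. Summed mitosis signals were 6942, 3375 and 2268 in day 0 blood and 285772, 49327 and 141874 in the TIC fraction. Leaving out the TIC array of mouse 833 kept the counts at 25 and 2.

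Cdc20 activates the ubiquitin ligase that starts anaphase. Its ratios were 0.043, 0.033 and 0.041 in day 0 blood and 2.24, 2.62 and 2.77 in the TIC fraction, and its Cy5 signals 25, 18.3 and 11.1 and 5282, 2213 and 4281 (probe at chr4:117930863-117930922, mm8). It rose by 2.50 ± 0.14 (SE; limma adjusted p = 4.9e-05), and the ratios of each group lay close together. Birc5 (survivin) rose by 2.70, Bub3, a checkpoint protein, by 2.0 (other probes down to 0.55), and the kinase Aurka by 1.69. The kinases Plk1 and Cdk1 were above background on no blood array and were at least 6.92-fold and 7.93-fold higher. Psrc1, a spindle protein, was at least 46.9-fold higher by 1 probe, and its other probes gave differences between 1.32 and 2.69. Mki67 and Top2a, common markers of dividing cells, were not called (0.26 ± 0.26 and 0.36 ± 0.20, SE; limma adjusted p = 0.41 and 0.16), and Ccnb2 stood at 0.34 ± 0.29 (SE; adjusted p = 0.34). With median centring these 3 were 3.34, 1.93 and 3.25. The 2 falls, Nusap1 (-2.31) and Ube2c (-1.30), stood at 1.59 and 3.02 there. Their day 0 blood ratios to the reference were -2.06, -3.09 and -2.03 for Nusap1 and -2.52, -3.74 and -2.37 for Ube2c, below 0 in each mouse.

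Late cell cycle genes are known to carry a CHR element (TTTGAA) and CCAAT boxes near their starts. Both are in capitals in the 250 bases before the start of Cdc20 (chr4:118437344-118437593, minus strand), Cdk1 (chr10:69352913-69353162, minus strand) and the uncalled Ccnb2 (chr9:70421555-70421804, minus strand), which hold 1, 2 and 1 CHR matches and 2, 3 and 3 CCAAT matches (RefSeq, GRCm38.p6).
Cdc20: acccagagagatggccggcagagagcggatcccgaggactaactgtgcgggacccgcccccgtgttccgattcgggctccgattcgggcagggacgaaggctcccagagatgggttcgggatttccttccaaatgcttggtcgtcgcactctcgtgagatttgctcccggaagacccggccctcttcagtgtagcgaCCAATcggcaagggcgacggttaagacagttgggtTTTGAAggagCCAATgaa
Cdk1: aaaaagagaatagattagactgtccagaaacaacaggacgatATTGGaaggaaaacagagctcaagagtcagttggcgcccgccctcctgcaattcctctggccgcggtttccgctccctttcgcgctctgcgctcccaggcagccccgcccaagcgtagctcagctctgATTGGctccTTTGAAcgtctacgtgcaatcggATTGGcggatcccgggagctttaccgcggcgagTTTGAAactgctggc
Ccnb2: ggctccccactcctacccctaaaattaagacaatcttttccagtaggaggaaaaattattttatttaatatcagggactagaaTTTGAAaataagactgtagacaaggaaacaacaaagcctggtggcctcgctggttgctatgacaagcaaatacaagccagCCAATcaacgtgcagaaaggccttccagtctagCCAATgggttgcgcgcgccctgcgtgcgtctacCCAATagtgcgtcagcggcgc
Among the 28 mitosis members with a promoter, 20 (71.43%) held TTTGAA, 24 (85.71%) CCAAT and 19 (67.86%) both, on either strand. Over all 27025 genes the shares were 20.23%, 41.06% and 7.974%.

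Most replication genes called were higher. Of 33 tested, 20 rose and 3 fell (median 0.73), 7 rises and 1 fall repeated on the shared slide, and 18 rises and 1 fall held under all 5 scalings. Of the 16 above background on all 6 arrays, 7 rose and 2 fell (median 0.44). Another 11 were seen on the TIC arrays alone and had to differ to pass the filter. Among the falls, Rfc3 was above background on the TIC arrays alone, so that its loess direction is unreliable. There were 22 rises and 5 falls without the TIC array of mouse 833. Orc6 of the origin recognition complex (2.74), the primase subunit Prim1 (2.53) and Mcm7 of the replicative helicase (1.84) were among those that repeated, while Pcna, the polymerase clamp, rose in the fit of all arrays (2.47 ± 0.41, SE; limma adjusted p = 0.0023) and not on the slide (adjusted p = 0.0695). Lig1, the replicative DNA ligase, went the other way. Its ratios were 0.54, -0.34 and 0.71 in blood and -7.62, -5.55 and -7.11 in the TIC fraction, a difference of -7.06 ± 0.54 (SE; limma adjusted p = 0.00012) that repeated and was negative under all 5 scalings. Its Cy5 signals were 15180, 4623 and 3456 in blood and 1487, 936 and 857 in the TIC fraction. The E2F letters TTCCCGC or TTGGCGC stood in 14 of 25 members with a promoter (56%), against 7.789% of all genes, among them Lig1 and Mcm5. Mcm5, another helicase subunit, rose by 0.79 ± 0.095 (SE; limma adjusted p = 0.00065) and holds 2 such matches before its start (chr8:75109259-75109508, plus strand).
Mcm5: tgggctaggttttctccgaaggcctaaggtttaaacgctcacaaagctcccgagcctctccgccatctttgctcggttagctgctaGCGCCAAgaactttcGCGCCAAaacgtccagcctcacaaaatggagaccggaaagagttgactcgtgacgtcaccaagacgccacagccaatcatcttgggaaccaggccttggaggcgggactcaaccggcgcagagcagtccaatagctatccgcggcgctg

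Most genes for ribosome assembly and protein folding were called higher. Of 22 nucleolar genes tested, 19 rose and none fell (median 1.41), and the 12 above background on all 6 arrays were called higher. Without the TIC array of mouse 833 there were 18 rises and 1 fall. Npm1 (nucleophosmin, a ribosome assembly factor) had ratios of -0.23, 0.69 and 0.67 in blood and 4.35, 3.22 and 4.20 in the TIC fraction. All TIC values lay above all blood values, and it rose by 3.55 ± 0.38 (SE; limma adjusted p = 0.0004). Fbl (fibrillarin, an RNA methyltransferase) rose by 1.93, Nop58, its partner, by 2.41, and Myc, a transcription factor that drives such genes, by 1.02 (other probes down to -0.28). Of 22 chaperone genes 15 rose, none fell and 7 were not called with all arrays, and 17 rose and 2 fell without the TIC array of mouse 833. Hspe1 and Hspd1, the mitochondrial folding pair HSP10 and HSP60, rose by 3.59 ± 0.36 and 2.26 ± 0.13 (SE; limma adjusted p = 0.0003 and 5.4e-05), and Hspa5, a chaperone of the endoplasmic reticulum, by 1.64. Of the nucleolar rises 10 repeated on the shared slide and 17 held under all 5 scalings, and of the chaperone rises 9 and 15. Over all genes 30.4% were called higher, 7.18% were higher and repeated, and 21.1% were higher under all 5 scalings. Of the 16 chaperone genes above background on all 6 arrays 12 rose, beside 23% of all such genes. Another 4 nucleolar and 3 chaperone genes were seen on the TIC arrays alone and had to differ to pass the filter.

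Redox and glycolysis genes had calls in both directions. The redox shares and that of the glycolysis rises lay near those of all genes (30.4% higher, 33.5% lower), and the share of glycolysis falls lay below. Prdx1, a peroxidase, had ratios of -0.55, 0.029 and -0.55 in blood and 4.23, 2.63 and 4.26 in the TIC fraction and rose by 4.07 ± 0.44 (SE; limma adjusted p = 0.0004). Txn1 (thioredoxin) rose by 2.42 and Prdx3 by 1.56. Cat (catalase) and Prdx2, which are abundant in red cells, stood at -5.97 and -5.09, and with median centring at -1.49 and 0.60. In all, 6 of 22 redox genes were called higher and 8 lower, and the 6 higher and 1 lower held under all 5 scalings. Of 25 glycolysis and hypoxia genes 8 were called higher and 4 lower (9 and 7 without the TIC array of mouse 833). None of the 4 held under all 5 scalings, and the 7 rises that held under all 5 scalings included Tpi1 (2.50), Ldha (1.82) and Bnip3 (1.20). Car9, a hypoxia-induced carbonic anhydrase, stood at -2.01 with loess and 0.15 with median centring.

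Several chemokines that attract monocytes rose. Of 24 cytokine and chemokine genes tested, 13 rose and 2 fell (median 1.07), 12 rises held under all 5 scalings and 3 repeated on the shared slide. Only 7 members were above background on all 6 arrays, of which 2 rose and 2 fell (median -0.55), and 7 were seen on the TIC arrays alone. With slide as a fixed block 3 rises and 2 falls were called. Ccl8 had Cy5 signals of 1.58, 3.76 and -0.531 in blood, none above background, and 31293, 1066 and 5873 in the TIC fraction. It was at least 17.4-fold higher (limma adjusted p of its loess ratio = 0.00067). Ccl2, Ccl7 and Ccl12, its neighbours in the monocyte chemokine family, were at least 18.6-fold, 10.47-fold and 10.6-fold higher. Their ratios were lowest in mouse 833, at 2.19, 2.0, 1.64 and 1.51 for Ccl8, Ccl2, Ccl7 and Ccl12, against at least 3.27 in the other 2 mice. Ccl8 and Ccl2 repeated on the slide, and Ccl7 and Ccl12 did not (limma adjusted p on the slide = 0.0662 and 0.0866). Cxcl1 and Cxcl2, which attract neutrophils, rose by 2.20 ± 0.48 and 2.14 ± 0.47 (SE; limma adjusted p = 0.0074 and 0.0076) and did not repeat. Ccl5, made by T and natural killer cells, and the macrophage growth factor Csf1 were called lower (-4.28 and -3.46), at -0.21 and -0.37 with median centring. Without the TIC array of mouse 833, 19 members rose and 2 fell. The list's median difference was 1.77 in mouse 832, -0.01 in mouse 833 and 1.22 in mouse 834.

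Genes linked to tumour-associated macrophages were mostly seen on the TIC arrays alone, as 10 of 18 tested, and had to differ to pass the filter. Of the 5 above background on all 6 arrays 1 rose and 3 fell. In all 13 were called higher, each under all 5 scalings, and 4 lower, none of them so. On the shared slide 5 rises and 2 falls repeated, and with slide as a fixed block 8 rises and 2 falls were called. Apoe, a lipid carrier made by macrophages and liver cells, had ratios of -1.23, -0.77 and -0.65 in blood and 1.29, 1.82 and 0.90 in the TIC fraction. It rose by 2.22 ± 0.22 (SE; limma adjusted p = 0.00027) with no overlap. Gpnmb, the mannose receptor Mrc1 and osteopontin Spp1 were at least 3.46-fold, 2.67-fold and 3.24-fold higher, and the lipid receptor Trem2 rose by 1.90. Arg1 (arginase 1) and Chil3, used as markers of alternative activation, were called lower with loess (-0.93 and -2.91) and stood at 1.22 and 0.074 with median centring. Of 23 general monocyte and macrophage genes, 10 rose and 6 fell with loess (30.4% and 33.5% over all genes). Of these, 2 rises and 3 falls repeated on the shared slide, and 6 rises and none of the falls held under all 5 scalings. The complement subunit gene C1qc was at least 33.3-fold higher and Aif1, a macrophage protein, rose by 1.64, while Csf1r, the receptor for macrophage growth factor, and Adgre1 (F4/80) were not called (-0.57 ± 0.22 and 0.26 ± 0.21, SE; limma adjusted p = 0.059 and 0.31). With median centring all 23 lay above 0 and their median was 2.48. Without the TIC array of mouse 833 the macrophage lists gave 12 rises and 4 falls (tumour-associated) and 10 and 8 (general).

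Proteases of the matrix and lysosome rose in 10 of 18 genes and fell in 3 (30.4% and 33.5% over all genes), and 4 rises repeated on the shared slide. The collagenase Mmp13 was at least 3.61-fold higher, and Timp1, a protease inhibitor, rose by 1.75 (another probe 0.45). Calls of fibroblast and endothelial genes depended on the scaling. Dcn (decorin) rose by 3.36 ± 0.17 (SE; limma adjusted p = 4.2e-05; another probe 0.47) and Sparc was at least 5.78-fold higher, but 7 of 13 fibroblast genes were called lower with loess, 1 of them under all 5 scalings. With the scanner's processed signals 7 were called higher and 4 lower, and without the TIC array of mouse 833 there were 4 and 6. The summed fibroblast signal was 1068, 817 and 291 in blood and 151545, 23260 and 66250 in the TIC fraction. Such unscaled sums were higher on the TIC arrays for other lists too, also where most calls were lower with loess. The interferon-stimulated list gave 11040, 5309 and 3554 in blood and 213384, 15074 and 82728 in the TIC fraction. For Col1a1 and Col3a1, both collagens, the loess call was lower although Cy5 was above background on the TIC arrays alone. Such a clash occurred for 59 of the 4770 genes called lower. These loess ratios have no reliable direction, and the reverse clash occurred for none of the genes called higher. Of 11 endothelial genes 1 was called higher and 3 lower with loess (30.4% and 33.5% over all genes), and 4 and 1 with the processed signals. Markers of skin, muscle and fat, which lie beside a subcutaneous tumour, gave 1 rise and 5 falls of 10, 1 and 1 of 5, and 1 and 0 of 3.

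Calls of the pan-leukocyte, neutrophil, T cell, class II and interferon lists depended on the scaling, mostly on median centring. Relative to the median of all genes, the pan-leukocyte, neutrophil, T cell and interferon medians lay below 0 under all 5 scalings. The class II median lay 0.79 above that of all genes with median centring and below it under the other scalings. With loess, 12 of 15 pan-leukocyte genes fell (median -2.42) and all 12 repeated on the shared slide. With the processed signals 12 of the 15 were called lower, and with Cy5 alone 11 (median -1.69). With median centring their median was 0.96, close to the 1.16 of all genes, and none of the 12 was called lower under all 5 scalings. Ptprc encodes CD45, carried by all white cells. Its ratios were 0.87, 1.55 and 1.46 in blood and -3.21, -1.55 and -3.45 in the TIC fraction, yet its Cy5 signals were 980, 1059 and 491 and 1281, 954 and 413 (probe at chr1:139879923-139879982, mm8). The ratios of the groups did not overlap and the signals did. The difference was -4.03 ± 0.36 (SE; limma adjusted p = 0.00019) with loess and -0.33 with median centring. Arhgdib, a regulator of small GTPases in white cells, turned from -4.23 with loess to 0.050 with median centring, and was -3.43 with Cy5 alone. Cd53, Cd48 and Evi2a were not called (-0.34, -0.14 and -0.0061).

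Of 19 neutrophil genes 16 were called lower and 4 of them under all 5 scalings: the granule genes Ltf (-5.57), Lcn2 (-1.80) and Mmp8 (-1.5) and the chemokine receptor Cxcr2 (-2.96). All 4 repeated on the slide. S100a8 and S100a9, the calprotectin pair, stood at -4.81 and -5.65 with loess and -0.24 and 0.13 with median centring. With Cy5 alone they stood at -3.92 and -3.17. Cy5 signals of S100a8 were 8288, 5475 and 2676 in blood and 22763, 1606 and 3817 in the TIC fraction and overlapped. Of 16 T cell genes 14 were called lower with loess and 1 (Cd3e) under all 5 scalings. Of the 14, 2 (Il7r and Cd247, chosen after their values were seen) had Cy5 above background on the TIC arrays alone, which leaves their loess direction unreliable. The T cell list was dim throughout, with summed signals of 486, 299 and 189 in blood and 1625, 746 and 875 in the TIC fraction, and its blood ratios were mostly below the reference of a mouse with a thymus (Cd3d -1.90, -1.95 and -1.55). Of 16 natural killer genes 1 rose and 5 fell with all arrays, the falls near the 33.5% of all genes called lower. Without the TIC array of mouse 833, 8 of them rose and 4 fell. Gzmb (granzyme B) had ratios of 0.18, 0.49 and 0.45 in blood and 1.69, 0.30 and 1.41 in the TIC fraction and overlapped between groups.

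Of 10 class II genes 7 were called lower with loess, 1 of them (H2-Oa, part of an inhibitor of class II loading, at -3.71) under all 5 scalings. H2-Ab1 is a chain of the class II molecule that presents antigen. Its unscaled Cy5 signals were 1979, 1257 and 1042 in blood and 49762, 4909 and 21589 in the TIC fraction, higher on each TIC array. H2-Ab1 stood at -2.10 ± 0.31 (SE; limma adjusted p = 0.0014) with loess and at 2.53 with median centring. Its other probes gave smaller loess differences, between -0.74 and -0.56. With the processed signals the probe shown stood at -2.05 and with Cy5 alone at -0.47. The summed class II signal was 5167, 3669 and 2847 in blood and 111678, 11292 and 39818 in the TIC fraction. Among 28 interferon-stimulated genes 17 were called lower and 5 higher, of which 2 falls and 3 rises held under all 5 scalings. Rsad2 (viperin) and Igtp were the falls (-8.81 and -4.18), and Ifitm3, Bst2 and Usp18 the rises (1.5, 1.54 and 0.78), and all 5 repeated on the shared slide. Cd274, which encodes the checkpoint ligand PD-L1, stood at -1.02 with loess and 0.71 with median centring. With loess 7 of 13 checkpoint genes were called lower and 2 higher, beside 33.5% and 30.4% of all genes. Of these falls 3 repeated on the slide and none held under all 5 scalings. Median centring gave 7 higher and 0 lower, where it called 9406 of all 14253 genes higher. Relative to the median of all genes, the checkpoint median lay below 0 under all 5 scalings, at -0.53 with median centring.

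Outside the lists, the 10 largest rises among genes with a symbol and a probe above background on all 6 arrays included Thyn1 (4.04 ± 0.34), the mitochondrial ribosomal protein Mrpl13 (3.86 ± 0.24), the glutaredoxin Glrx3 (3.69 ± 0.36) and Cks2, a cyclin-dependent kinase subunit (3.46 ± 0.32; SE, with limma adjusted p of 0.00016, 6.6e-05, 0.00026 and 0.00021). Of these 10, Prdx4 alone did not repeat on the slide (adjusted p = 0.0504), and its other probe gave -0.65. The 10 largest falls, all repeated, included the red cell genes above, the iron-sulfur assembly factor Isca1 (-10.51 ± 0.70), Ctla2a, a cysteine protease inhibitor (-10.36 ± 0.13), Fchsd1 (-9.93 ± 0.37) and Bcor, a corepressor (-9.35 ± 0.51; another probe -0.67; SE, with limma adjusted p of 7.8e-05, 1.1e-06, 3.4e-05 and 4.8e-05). With median centring Isca1, Ctla2a, Fchsd1 and Bcor stood at -4.95, -4.90, -4.94 and -3.48. Fhl1, a LIM domain protein, had Cy5 signals of 2480, 1478 and 794 in blood and none above background in the TIC fraction. It was at least 214-fold lower there (limma adjusted p of its loess ratio = 3.4e-05).

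**Figure D4:**
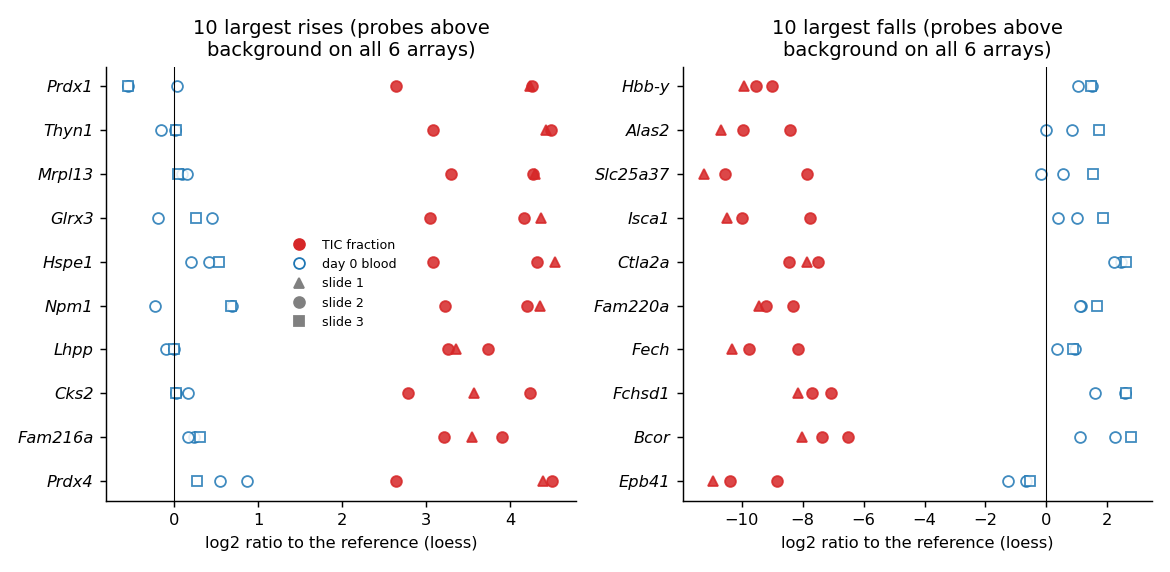
Log2 ratio to the reference (x axis, loess) of the 10 genes that rose most and the 10 that fell most, each with a symbol and a probe above background on all 6 arrays, red for the TIC fraction, open blue for day 0 blood, with the shape giving the slide. The groups do not overlap for any of the 20 genes, and the TIC array of mouse 833 often lies nearest to blood, as for Prdx1 at 2.63.

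The shared slide tested which differences remain when both groups lie side by side. Its 2 TIC and 2 blood arrays, fitted alone, called 3489 genes (24.5%), 1025 higher (7.19%) and 2464 lower (17.3%). Of the 9102 genes called with all arrays, 3480 were called there in the same direction (24.4% of the genes tested), 1024 higher (7.18%) and 2456 lower (17.2%). That was 23.64% of the rises and 51.49% of the falls. No gene was called in opposite directions, although the fits share arrays. Under all 5 scalings and on the slide, 973 genes were called higher (6.83%) and 741 lower (5.2%). The fit rested on 2 residual degrees of freedom, and single arrays decided its count. Without the day 0 blood of mouse 832 or 833, with 1 residual degree of freedom, limma called 0 genes (2863 and 3368 at an unadjusted p under 0.05), and without the TIC fraction of mouse 833 or 834 it called 7010 and 4822.

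The arrays off the shared slide mostly gave the same directions. The TIC fraction of mouse 832 minus the day 0 blood of mouse 834, neither of which lies on slide 2 nor shares a mouse with the other, had the sign of the slide difference for 3476 of the 3489 genes called on the slide (99.63%) and for 12479 of all 14253 genes (87.55%). This pair has no replicate. The pair of mouse 833, on 1 slide and from 1 mouse, had the sign of the fit for 8991 of the 9102 called genes (98.78%), of which it forms a part. For Afp the difference was 5.45 on the slide, 6.12 within mouse 833 and 5.08 off the slide, and for Alas2 it was -9.61, -8.40 and -12.43.

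**Figure D5:**
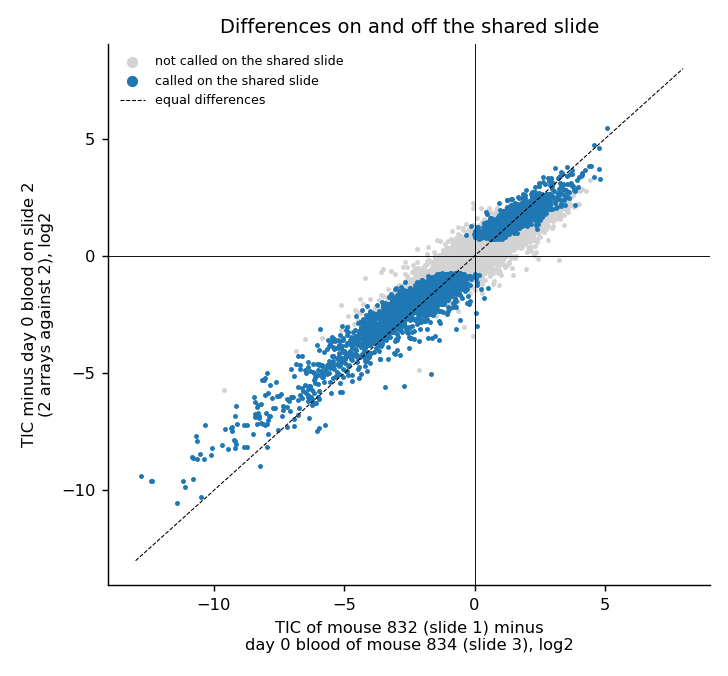
Difference on the shared slide (y axis, 2 TIC arrays minus 2 day 0 arrays, log2) against the difference off it (x axis, TIC of mouse 832 minus day 0 blood of mouse 834, log2) for 14253 genes, blue where called on the slide. The dashed line marks equal differences, and 99.63% of the blue genes have the same sign on both axes.

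The early response genes Egr1 and Fos, switched on within minutes of a stimulus, were highest in mouse 833 in both tissues. Egr1 had ratios of 0.56, 1.5 and -0.017 and Fos of 0.12, 0.74 and 0.048 in day 0 blood, against 1.91, 4.13 and 2.36 (Egr1) and 2.38, 3.38 and 2.94 (Fos) in the TIC fraction. Of the 21 immediate-early genes tested 8 were called higher and 8 lower, beside 30.4% and 33.5% of all genes. Of the 14 above background on all 6 arrays 2 rose and 8 fell (median -0.92), beside 23% and 45.4% of all such genes. Fos rose by 2.60 ± 0.19 (SE; limma adjusted p = 0.00011) with no overlap. Without the TIC array of mouse 833, 10631 genes were called in place of 9102. Its part in the results above was not tested beyond these counts.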

How the data were processed

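Agilent two-colour mouse arrays (60-base probes placed on build mm8) measured 9 samples. The authors deposited spot and background intensity, processed signals and log10 ratios of red (Cy5) to green (Cy3). The software was Feature Extraction, version 10.5.1.1 per the file headers and 9.1.3.1 per the submitters' processing notes. The deposited value table equals the scanner log10 ratio on every array, with a column median of 0, sample over reference.

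Background was corrected with normexp (offset 50) after 0 to 103 spots an array with non-uniform background were set aside, and log2 ratios were normalized by loess within arrays. Spots of a probe were averaged. Of 41174 probes, 213 lacked a value on some array, and 19995 passed the filter (Cy5 well above background on 3 or more arrays). No spot was saturated. The probe of highest mean intensity stood for each of 14253 genes. Names came from accessions for 23374 probes, current symbols for 6733 and synonyms for 2919 (RefSeq table of GRCm38.p6), and stayed as in the files for 8148.

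limma 3.58.1 in R 4.3.3 fitted group and mouse over all 9 arrays (4 residual degrees of freedom), and group alone over the 4 arrays of the shared slide. The number is the animal's name in the titles. The correlations of deviations from the group means were -0.024, -0.056 and -0.015 for same-numbered samples. A difference repeats where it passes 0.05 on the slide in the same direction. Bounds for probes above background in 1 group only use single-channel values after loess and Aquantile. The scripts were tested on simulated data.

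Members and lists were chosen with earlier results of these data known. Named genes are the 10 largest rises and falls with a symbol, 1 direction in 3 mice and a probe above background on all 6 arrays, the 6 brightest of those seen in 1 group only, and from each list the 4 members, or fewer, of smallest p. Other list members named were chosen for their role or after their values were seen. The number of arrays limits the precision. Some list members are not reported here. Tried as alternatives were fits without the block, with slide, on 6 arrays or with 1 array left out, 4 other scalings, other background settings, filters and probe rules. Counts per list under these settings, such as without the TIC array of mouse 833, were added after seeing the data.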

Additional observations from a re-analysis of the deposited data

Results flagged for a closer look

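Reference signals in the Cy3 channel, which the comparisons use only as the denominator, were above 3 times the highest day 0 signal on every TIC array for 4 of the 6 brightest genes seen on the TIC arrays alone. The mean Cy3 signal of Rbp4 was 1439 against 12.4, a ratio of 116, and that of Rhox5 941 against 14.4, a ratio of 65.5. For Alb it was 361 against 15.6, a ratio of 23.2, and for Igfbp1 240 against 17, a ratio of 14.1. Over all genes the median ratio was 1.029, and 4 of the 100 genes of brightest Cy5 on TIC arrays had a TIC Cy3 signal above 3 times the day 0 one on every array. The source of this signal was not tested. With Cy5 alone Rbp4 rose as well (7.94).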

How the results depend on the processing

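The count of called genes was 9102 with the replicate block, 9320 with no replicate block and 9317 with slide as a random block. With replicate block and slide as fixed blocks it was 4432 (1472 higher, 2960 lower). Leaving out 1 array gave 6736 to 10631 calls, 2743 to 5288 higher and 3963 to 5343 lower. The higher calls fell to 2792 without the day 0 blood of mouse 832 and to 2743 without that of mouse 834. Probes above background on all 6 arrays gave 4636 of 6984 (1550 higher, 3086 lower). Median centring gave 9406 higher and 811 lower calls. On the shared slide it gave 5527 (5237 higher, 290 lower), and deposited log ratios gave 5891 (3129 higher). Leaving out 1 array there gave 0 to 7010 calls, 0 to 3496 higher and 0 to 3514 lower. It called 1887 higher without the TIC fraction of mouse 834. With 1 array in a group, that array is assumed to vary like the others. No replicate block could be added there.

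Differences of 30 named genes changed sign with median centring, which moves the median of all genes to 1.16: Arhgdib 0.050, Bgn 0.056, Car9 0.15, Cd274 0.71, Cd36 0.45, Cd3d 0.25, Cd47 2.08, Chil3 0.074, Cma1 0.53, Entpd1 0.49, Flt1 0.55, Ftl1 1.44, Gclm 0.092, H2-Ab1 2.53, Il4ra 0.65, Irf7 0.30, Irf8 2.61, Irf9 0.13, Itgb2 0.56, Klf2 0.076, Lck 0.17, Mcpt4 1.25, Nr4a1 2.26, Plvap 0.68, Ptpn6 1.18, S100a9 0.13, Selplg 0.68, Slc16a3 1.35, Tbx21 0.12 and Xist 1.80. Mcpt4 was 1.03 and Mylpf -0.12 with Cy5 alone, and Pparg -0.0022 with replicate block and slide. None of these 3 was called with all arrays. With 1 array left out Mcpt4 lay between -0.28 and 0.10 (0.037 without the day 0 blood of mouse 834), Mylpf between -0.054 and 0.42 and Tnnc2 between -0.031 and 0.18, none called. The cause of these turns was not tested. Leaving out the replicate block moved no count over all genes by over 1.5 times. Of the list counts, natural killer rises went from 1 to 2, and neutrophil and class II rises from 0 to 1.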
